A study of Mus musculus with 4 samples.

Results

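The genes described here are 48 markers of cells other than keratinocytes that lie next to the hair follicle: 19 of fibroblasts, 13 of endothelium, 6 of mural cells, 7 of melanocytes and 3 of Schwann cells. They were chosen by symbol, and each of the 48 had a row of the array table that names it alone, out of 19935 genes so named. The arrays measured RNA of hair follicle bulge stem cells from male mice of the CD-1 stock, aged 56 days after birth and in the second telogen, sorted from skin for both alpha6 integrin and CD34. The mice had received 100 mg/kg CSA or vehicle by intraperitoneal injection for 3 days, with 2 biological replicates per group and 1 array each. CSA is not written out in the labels (calcineurin studies use it for cyclosporine A), which also do not say how many mice gave a replicate. All groups share the strain, sex, age and sorting gate, and unsorted skin was not analysed here.

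The bulge holds the resting stem cells of the follicle and sits in a sheath of dermal fibroblasts, with capillaries and their mural cells (pericytes and smooth muscle) close by and sensory nerve endings wrapped by Schwann cells around it. Melanocyte stem cells live among the epithelial cells of the bulge and hair germ; CD-1 is an albino stock, whose melanocytes make no pigment. Outside the follicle CD34 is also carried by endothelial cells and many dermal fibroblasts, and alpha6 integrin by endothelium and Schwann cells. The gate asks for both, so by these markers it does not by itself part endothelium from the epithelium. How cleanly it left out fibroblasts and Schwann cells was not tested here.

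The values are log values, taken as base 2, that the authors centred gene by gene on a baseline that the sources used here do not give. For 11 of the 48 genes, and for 18.1% of all genes, that baseline lay midway between the values of 2 of the 4 arrays (mirrored about 0 to within 2e-06), Col1a1, Vim and Fn1 among them. A value of 0 therefore means a gene stood at that baseline, not that its RNA was absent, and levels of different genes cannot be compared. In RNA from a pool of cells, fewer cells of a type and less RNA per cell cannot be told apart. The median over all genes was highest on vehicle replicate 1, at 0.07, and between -0.02 and 0.01 on the others, so vehicle replicate 1 lay highest before any marker is considered. CSA replicate 2 and vehicle replicate 2 were the most alike (Pearson r over genes 0.545, against 0.0149 to 0.172 for the other pairs). The label of the cells was read against 18 keratinocyte and bulge genes. Of these 8 (44.4%, against 2.89% of all genes) had a mean of at least 0.5, with Cd34, Lgr5 and Krt24 at the head. Itga6, the gene of the other sort marker alpha6 integrin, had the lowest mean, -0.54, and that of Cdh1 was -0.33. A distance from a baseline cannot show how pure a sort was.

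Most of the markers lay close to the baseline on every array. Of the 48 genes 38 (79.2%) stayed within 0.5 of it on all 4 arrays, as did 65.6% of all genes. Another 6 had a mean over the 4 arrays of at least 0.5, a level that 2.89% of all genes reached and that was set after the values had been seen: Mitf, Thsd1, Fbln1, Col6a1, Sparc and Cspg4. Of these Cspg4 had the lowest mean, 0.51, and the highest mean among the other 42 genes was 0.23, that of Col6a2. The values of those 42 ran from -0.74 to 0.76. At 0 of 48 genes did all 4 arrays lie below the baseline, as they did for 3.35% of all genes. At 6 (Col6a1, Sparc, Eng, Thsd1, Cspg4 and Mitf) all 4 lay above it, as for 4.1% of all genes.

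**Figure D1:**
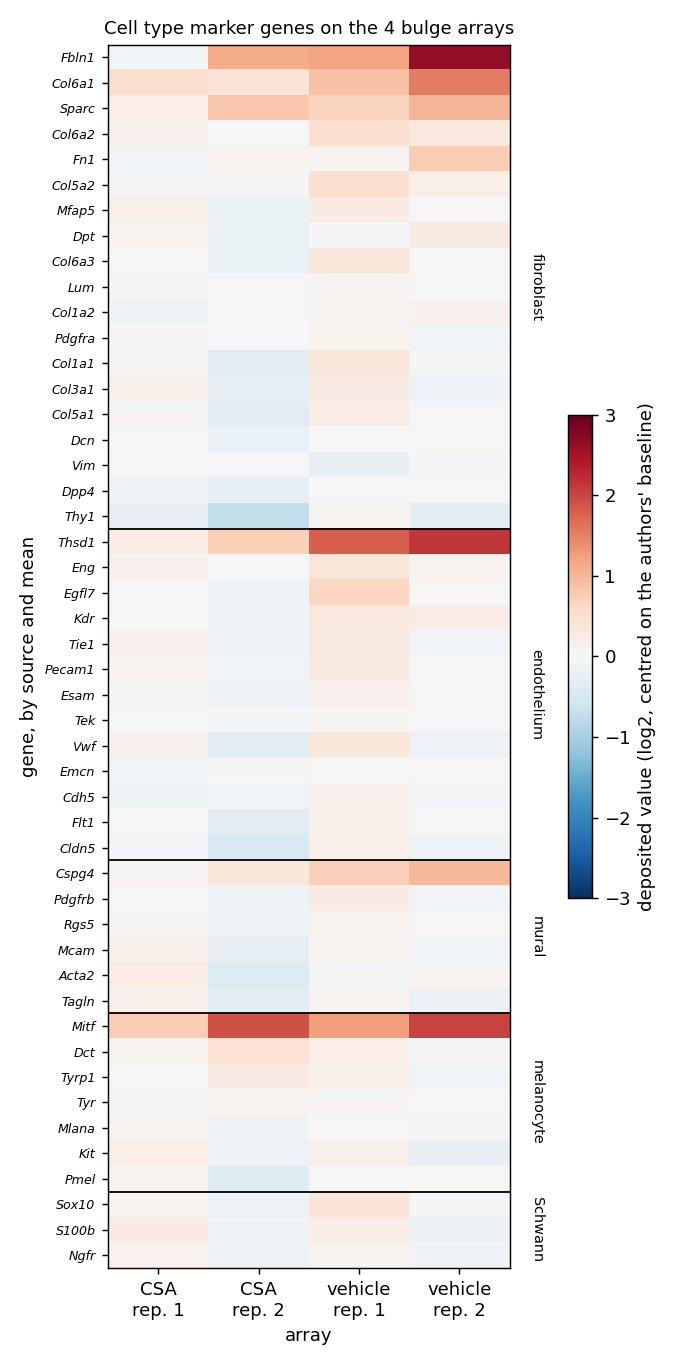
Deposited values (log2, centred by the authors; colour) of the 48 marker genes (rows, by source and by mean) on the 4 arrays (columns). The 6 genes with a mean of at least 0.5 stand out in red, with Fbln1 at 2.63 on vehicle replicate 2, and most other genes are near white.

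None of the 48 genes passed the test of CSA against vehicle across the whole table. There limma called 0 of the 48, as it called 0 of all 19935 genes (0%), and no adjusted p was below 0.999. With an unadjusted p under 0.05 limma gave 2 of the 48, Thsd1 and Cspg4, both lower in CSA, where 2.83% of all genes reached it in either direction and 1% as lower genes. A further count took genes whose 2 CSA arrays both lay on one side of both vehicle arrays and whose means stood at least 1.5-fold apart. It held 4 of the 48 (8.33%), all lower in CSA: Thsd1, Fbln1, Cspg4 and Col6a1, against 1.99% of all genes lower and 3.91% higher. All 4 belong to the 6 genes with a mean of at least 0.5. With each array centred on its median Fbln1 left this count (CSA replicate 2 at 1.14 and vehicle replicate 1 at 1.12). It lost Cspg4 and gained Thy1 when CSA replicate 1 was left out (2.88% of all genes lower), and it lost Cspg4 and Col6a1 and gained Thy1 and Egfl7 when vehicle replicate 2 was (5.28%). It grew to 6 genes without CSA replicate 2, adding Sparc and Mitf (7.63%), and to 6 without vehicle replicate 1, adding Fn1 and Mitf (4.54%).

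Thsd1, which encodes a transmembrane protein with a thrombospondin type 1 domain known from endothelium, parted the groups most widely of the 48. It stood at 0.23 and 0.72 after CSA and at 1.79 and 2.13 after vehicle. Both CSA arrays thus lay at least 1.07 below both vehicle arrays. CSA minus vehicle came to -1.49 ± 0.26 on the log2 scale (± is limma's moderated standard error throughout, with 2 arrays in each group; unadjusted p = 0.00414, adjusted p = 0.999). Fbln1, which encodes the matrix glycoprotein fibulin-1, was at -0.08 and 1.12 after CSA, 1.18 and 2.63 after vehicle. Its groups were only 0.06 apart, since CSA replicate 2 and vehicle replicate 1 were nearly level, and its range of 2.70 was the widest of the 48. The difference of -1.38 ± 0.67 shrank to -0.78 when CSA replicate 1 was left out and to -0.66 when vehicle replicate 2 was. It came to -1.98 when CSA replicate 2 was left out and to -2.10 when vehicle replicate 1 was (limma adjusted p = 0.999 with all arrays).

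Cspg4 encodes the NG2 proteoglycan, a pericyte marker that some epidermal keratinocytes also carry. Values of 0.03 and 0.34 after CSA, 0.70 and 0.96 after vehicle left a gap of 0.36 between the groups. The difference was -0.65 ± 0.21 (limma unadjusted p = 0.0348). Col6a1, the alpha1 chain of type VI collagen, was at 0.54 and 0.39 after CSA, 0.88 and 1.53 after vehicle. Vehicle replicate 2 was the high array here, and the difference of -0.74 ± 0.28 (limma unadjusted p = 0.0548) was -0.41 without it.

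Sparc and Mitf, the other genes with such a mean, did not part the groups in the rows used. Sparc, which encodes a collagen-binding protein of the matrix, was 0.21 and 0.82 after CSA, 0.66 and 1.03 after vehicle. CSA replicate 1 alone was low, and the difference of -0.33 ± 0.29 was -0.02 without it. Mitf, the transcription factor gene of the melanocyte lineage, which other cell types also use from other promoters, was 0.76 and 1.91 after CSA against 1.22 and 2.02 in vehicle. Both arrays numbered 2 were above both numbered 1, and the difference of -0.28 ± 0.51 turned to 0.29 when CSA replicate 1 was left out and to 0.11 when vehicle replicate 2 was. The second row for Mitf on the array behaved otherwise, with 0.06 and 0.07 after CSA, 0.61 and 0.80 after vehicle, a difference of -0.64. In that row the groups did not overlap and stood more than 1.5-fold apart, so the count of such genes depends on the row used. Mitf was the only one of the 48 with 2 rows.

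**Figure D2:**
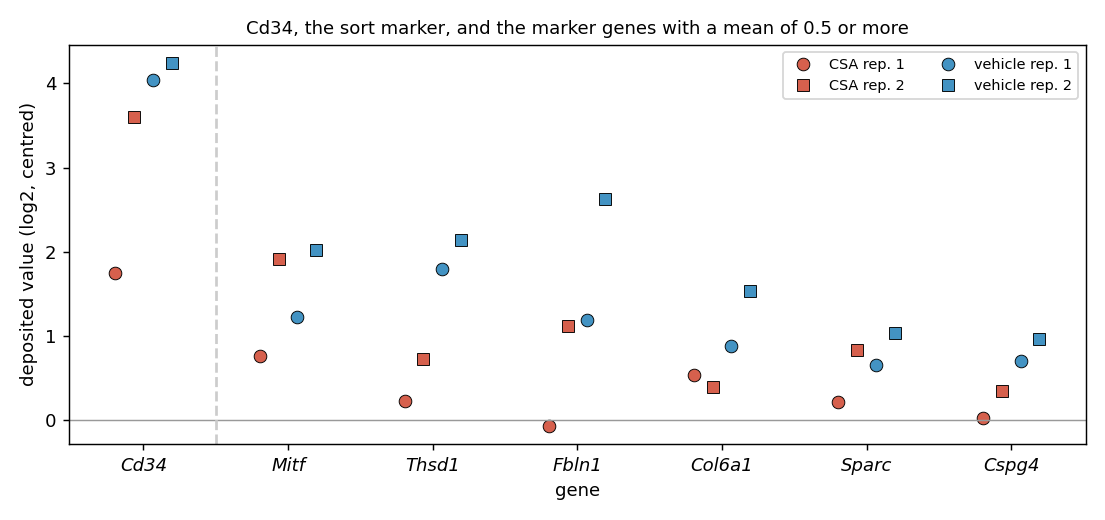
Deposited values (log2, centred) of Cd34, a sort marker, and of the 6 marker genes with a mean of at least 0.5, with 1 point per array. Colour gives the treatment and shape the replicate number. Vehicle replicate 2 is the highest array for all 6 marker genes and CSA replicate 1 the lowest for 5 of them, as both are for Cd34.

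The promoter windows of the 4 genes that stood 1.5-fold apart are shown because calcineurin acts through NFAT factors, whose core site reads GGAAA. The windows hold the 250 bases before a RefSeq transcription start, build GRCm38.p6, which is not the build mm8 of the submitters' notes. They lie at chr8:22227053-22227302 (plus strand) for Thsd1, chr15:85205699-85205948 (plus strand) for the outer of 2 starts of Fbln1, chr9:56864854-56865103 (plus strand) for Cspg4 and chr10:76726045-76726294 (minus strand) for Col6a1. Each is written 5′ to 3′ on the gene's strand, with GGAAA and its complement TTTCC in capitals; GGAAA contains GGAA, the core of ETS factor sites.
Thsd1: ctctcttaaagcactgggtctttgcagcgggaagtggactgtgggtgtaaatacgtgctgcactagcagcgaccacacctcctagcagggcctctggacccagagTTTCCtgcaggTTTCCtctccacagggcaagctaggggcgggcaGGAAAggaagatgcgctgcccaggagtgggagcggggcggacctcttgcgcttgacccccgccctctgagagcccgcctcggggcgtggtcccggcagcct
Fbln1: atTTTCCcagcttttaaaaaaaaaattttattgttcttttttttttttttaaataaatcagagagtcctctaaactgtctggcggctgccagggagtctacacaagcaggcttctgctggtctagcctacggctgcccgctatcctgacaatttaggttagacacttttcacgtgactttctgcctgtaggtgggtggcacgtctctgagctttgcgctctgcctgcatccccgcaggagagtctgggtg
Cspg4: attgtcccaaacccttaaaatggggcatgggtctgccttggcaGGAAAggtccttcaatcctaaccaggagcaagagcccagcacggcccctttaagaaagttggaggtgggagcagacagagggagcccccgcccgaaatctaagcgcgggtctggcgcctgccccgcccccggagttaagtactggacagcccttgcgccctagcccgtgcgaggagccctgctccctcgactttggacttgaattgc
Col6a1: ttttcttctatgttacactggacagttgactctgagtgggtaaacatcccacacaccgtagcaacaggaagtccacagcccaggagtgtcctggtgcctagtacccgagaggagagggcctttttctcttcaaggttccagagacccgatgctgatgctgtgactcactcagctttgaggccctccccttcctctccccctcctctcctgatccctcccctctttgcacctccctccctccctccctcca
Thsd1 had 3 matches, Fbln1 and Cspg4 had 1 each, and Col6a1 had 0. At least 1 match on either strand was found in 55.6% of all 32851 windows in the table. Of the 39 windows of the 32 marker genes that had one, 20 (51.3%) held a match. A match is a run of letters and not a shown binding site.

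The 6 genes with a mean of at least 0.5 and the other markers ranked the arrays in different ways. Vehicle replicate 2 held the highest value of all 6, and CSA replicate 1 the lowest of 5, the exception being Col6a1. Cd34 itself had that order of extremes, with 1.75 and 3.60 after CSA, 4.05 and 4.25 after vehicle. So did the list of 18 keratinocyte and bulge genes: vehicle replicate 2 was highest for 11 (61.1%, against 15.2% of all genes) and CSA replicate 1 lowest for 10 (55.6%, against 22.7%). Thsd1, Fbln1 and Cspg4, together with Fn1 and Col1a2, followed the full order of Cd34, in which CSA replicate 1 was lowest and CSA replicate 2, vehicle replicate 1 and vehicle replicate 2 came above it in turn; 2.33% of all genes had this order. The 6 were picked by their values, so these ranks are a description.

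Among the 42 markers nearer the baseline, vehicle replicate 1 was the highest array for 25 and CSA replicate 2 the lowest for 30. Over all 48 genes vehicle replicate 1 was highest for 25 (52.1%), little above the 43.2% of all genes for which it was highest. CSA replicate 2 was lowest for 31 (64.6%), against 32.8% of all genes. CSA replicate 1 was highest for 9 (21.1% of all genes) and CSA replicate 2 for 4 (20.5%). Vehicle replicate 1 was lowest for 1 gene, Vim, against 21.2% of all genes, and vehicle replicate 2 was lowest for 6 (23.3% of all genes). The order with CSA replicate 2 lowest, then vehicle replicate 2, CSA replicate 1 and vehicle replicate 1, was the most common one among the markers, with 15 of 48, and 14.7% of all genes had it. With each array centred on its median, vehicle replicate 1 was highest for 20 of 48 (33.3% of all genes) and CSA replicate 2 lowest for 31 (29.2% of all genes). After quantile normalization the counts were 17 (29.7%) and 30 (28.3%).

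**Figure D3:**
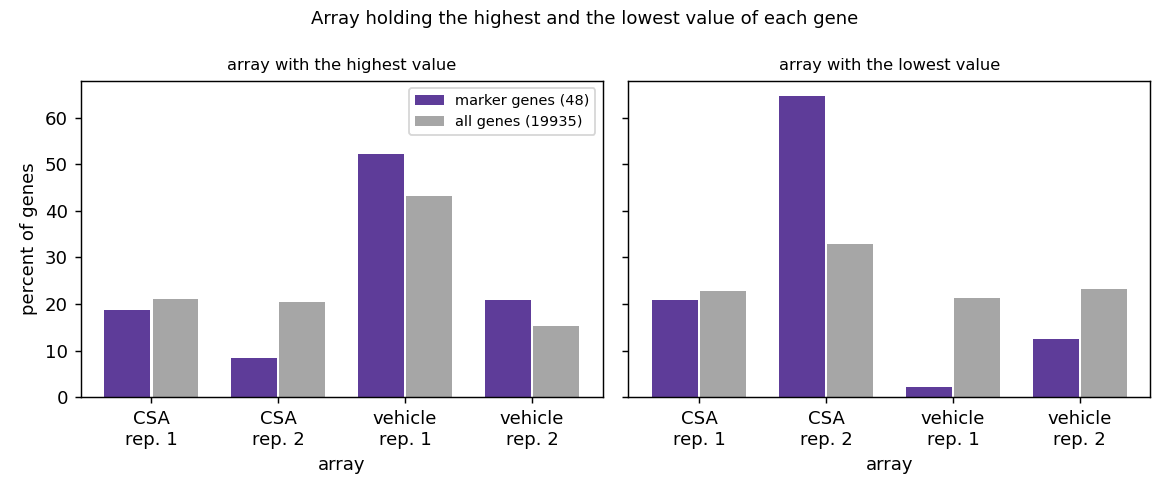
Percent of the 48 marker genes (purple) and of all 19935 genes (grey) for which each array held the highest value (left) and the lowest value (right). CSA replicate 2 is lowest for 64.6% of the markers and 32.8% of all genes.

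Between the treatments, 43 of the 48 differences were below 0, that is lower in CSA, against 58.9% over all genes. The median difference was -0.15, and -0.04 over all genes. These counts moved with the array left out: 31 of 48 were below 0 without vehicle replicate 1 (47.6% of all genes) and 34 without CSA replicate 2 (56% of all genes), but 42 without CSA replicate 1 (58.6%) and 44 without vehicle replicate 2 (61.6%). With arrays centred on their medians 37 were below 0 (53.7% of all genes), and after quantile normalization 38 (53.8%). The groups did not overlap for 16 of the 48 (33.3%), 15 of them lower in CSA, against 26.3% of all genes, 15.4% lower and 10.9% higher. Centring left 12 such genes (28.5% of all genes), of which 11 were lower (15.3% of all genes). Quantile normalization left 14 (28.3%), of which 13 were lower (15.4%).

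**Figure D4:**
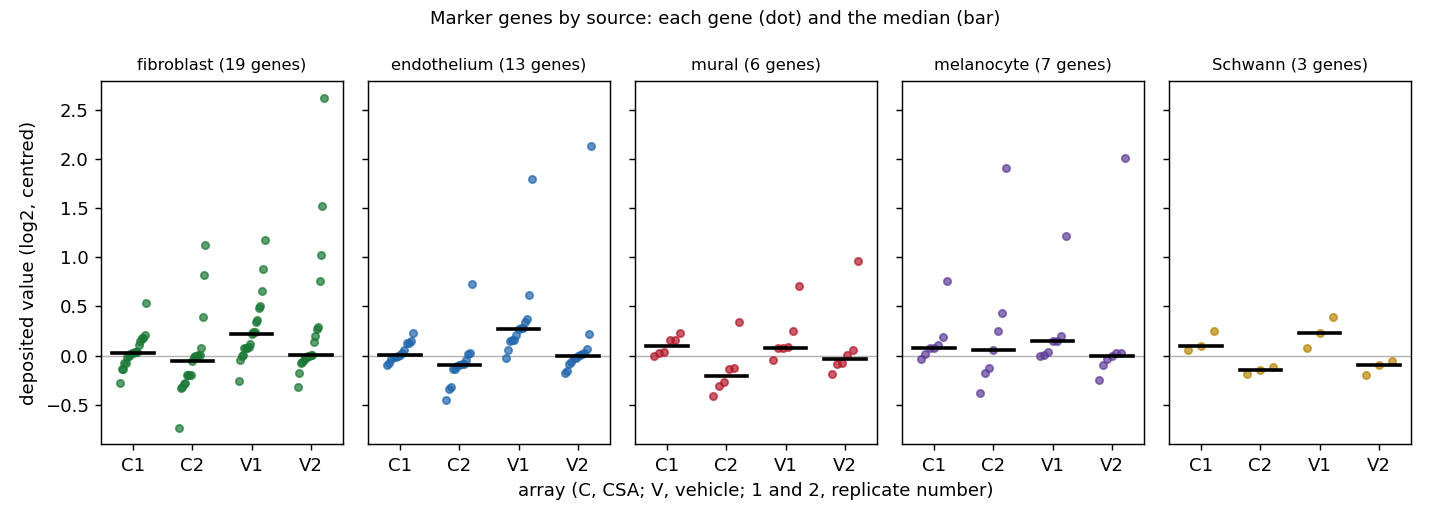
Deposited values (log2, centred) of each marker gene (dot) on the 4 arrays, in 1 panel per source, with the median of the source as a bar; C1 and C2 are the CSA replicates, V1 and V2 the vehicle replicates. The endothelial, Schwann, fibroblast and melanocyte medians are highest on V1, at 0.27, 0.23, 0.22 and 0.14. The mural, Schwann, endothelial and fibroblast medians are lowest on C2, at -0.21, -0.15, -0.10 and -0.05.

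The fibroblast markers, genes of the collagen-rich dermal matrix and its cells, had medians of 0.03 and -0.05 after CSA and 0.22 and 0.004 after vehicle. In CSA 18 of the 19 were lower (58.9% of all genes), with a median difference of -0.24, and 0 passed limma's test, adjusted or not. The groups did not overlap for 10 of them (26.3% of all genes), 9 lower (15.4%) and 1 higher (10.9%). The median difference kept its sign under all alternatives that were run, from -0.14 without CSA replicate 2 to -0.32 without CSA replicate 1. Vehicle replicate 1 was the highest array for 11 of the genes (43.2% of all genes), vehicle replicate 2 for 7 (15.2%) and CSA replicate 1 for 1, Vim (21.1%).

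The fibrillar collagens, which form the bulk of the dermis, were near the baseline. Col1a1, the alpha1 chain of type I collagen, stood at 0.04 and -0.34 after CSA, 0.36 and -0.04 after vehicle. Its groups overlapped, with the extremes on CSA replicate 2 and vehicle replicate 1 (difference -0.31 ± 0.25). Leaving out the former gave -0.12 and the latter -0.11. Col1a2, the other chain of the same fibre, spanned only 0.27 over the 4 arrays, and its extremes were CSA replicate 1 and vehicle replicate 2. Col3a1, of type III collagen, was 0.17 and -0.29 after CSA, 0.24 and -0.18 after vehicle. Each arm thus had 1 array above and 1 below the baseline, and the difference of -0.09 ± 0.27 turned to 0.12 when vehicle replicate 1 was left out and to 0.14 when CSA replicate 2 was. Col5a2 of type V collagen, the genomic neighbour of Col3a1, was 0.02 and -0.05 after CSA, 0.50 and 0.20 after vehicle, without overlap (-0.36 ± 0.19). Its partner chain Col5a1 overlapped between the groups (-0.24 ± 0.21).

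Type VI collagen is assembled from 3 chains, and their genes did not share one profile. Col6a2 lies next to Col6a1 in the genome; it was 0.15 and -0.003 after CSA, 0.49 and 0.29 after vehicle (-0.32 ± 0.18). Its highest array was vehicle replicate 1, while that of Col6a1 was vehicle replicate 2. Col6a3 was -0.01 and -0.20 after CSA, 0.34 and 0.01 after vehicle (-0.28 ± 0.20), again highest on vehicle replicate 1. All 3 chains were lower on both CSA arrays than on both vehicle arrays, as were 15.4% of all genes. The gap was 0.34 for Col6a1, 0.14 for Col6a2 and 0.02 for Col6a3.

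Genes that define dermal fibroblasts differed little. Pdgfra, the receptor by which dermal fibroblasts are often sorted, was 0.03 and -0.002 after CSA, 0.11 and -0.07 after vehicle. The vehicle arrays enclosed the CSA arrays, and the difference of -0.003 ± 0.17 was 0.02 with centred arrays. The neighbouring proteoglycan genes Dcn and Lum spanned 0.20 and 0.08, with differences of -0.11 ± 0.17 and -0.02 ± 0.16. Dpt (-0.16 ± 0.22), Mfap5 (-0.12 ± 0.22) and Dpp4 (-0.21 ± 0.16), genes of a matrix protein, a microfibril protein and a surface peptidase, ranged over 0.29 to 0.46.

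Thy1, a surface glycoprotein gene of fibroblasts and T cells, was the marker farthest below the baseline, at -0.28 and -0.74 after CSA, 0.08 and -0.32 after vehicle. CSA replicate 2 was the low array and vehicle replicate 1 the high one (-0.39 ± 0.26). Leaving out the former gave -0.16 and the latter -0.19. Fn1, which encodes fibronectin, was -0.08 and 0.08 after CSA, 0.08 and 0.76 after vehicle. Vehicle replicate 2 alone stood out, and without it the difference of -0.42 ± 0.29 was -0.08. Vim, the intermediate filament gene of mesenchymal cells in general, was the one fibroblast marker higher in CSA, at 0.01 and -0.01 against -0.25 and -0.07 (0.16 ± 0.17).

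All 13 endothelial markers were lower in CSA (58.9% of all genes), with a median difference of -0.15, and vehicle replicate 1 was the highest array for 11 of them (84.6%, against 43.2% of all genes). CSA replicate 2 was the lowest for 10 (76.9%, against 32.8%). The medians were 0.01 and -0.10 after CSA, 0.27 and -0.002 after vehicle. Vehicle replicate 1 was thus the high array, as it was for the fibroblast markers (median 0.22) and all genes (0.07). Leaving it out brought the median difference to -0.03, and leaving out vehicle replicate 2 to -0.30. Leaving out CSA replicate 2 gave -0.08 and CSA replicate 1 gave -0.22.

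The groups did not overlap for 5 of the 13 endothelial genes, all lower in CSA (38.5%, against 15.4% of all genes). Cdh5, Flt1 and Egfl7 were among them, with groups at most 0.023 apart. Kdr, the main receptor for vascular endothelial growth factor, was the endothelial gene after Thsd1 with the widest gap between the groups. Its values were -0.02 and -0.11 after CSA, 0.28 and 0.22 after vehicle, with a gap of 0.24 (-0.32 ± 0.16). It was -0.29 without vehicle replicate 1. Flt1, another receptor of that factor, was -0.01 and -0.32 against 0.16 and 0.01 (-0.25 ± 0.19). The groups nearly touched, and with CSA replicate 2 left out the difference came to -0.09. Egfl7, a factor secreted by endothelium, was -0.01 and -0.14 after CSA, 0.61 and 0.01 after vehicle. Its difference of -0.39 ± 0.26 rested on vehicle replicate 1 and was -0.09 without that array.

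The junction genes that define endothelium stayed near the baseline. Pecam1 was 0.06 and -0.09 after CSA, 0.27 and -0.02 after vehicle (-0.14 ± 0.19), and 0.01 without vehicle replicate 1. Cdh5, the endothelial cadherin, was -0.10 and -0.08 after CSA against 0.15 and -0.07 (-0.13 ± 0.17). Cldn5, the claudin of endothelial tight junctions, was -0.03 and -0.45 against 0.21 and -0.16 (-0.26 ± 0.25). In these 3 genes vehicle replicate 1 was the array above the rest; leaving it out gave -0.02 for Cdh5 and -0.08 for Cldn5, and leaving out CSA replicate 2 gave -0.05 for Cldn5. Vwf, the clotting factor that endothelium stores, was 0.13 and -0.34 after CSA, 0.35 and -0.18 after vehicle, so that both arrays numbered 1 were above both numbered 2 (-0.19 ± 0.29). Eng, a TGF-beta co-receptor, was above the baseline on all 4 arrays, at 0.12 and 0.02 against 0.37 and 0.07 (-0.15 ± 0.19). The remaining markers Tek, Tie1, Emcn and Esam had differences between -0.12 and -0.03, and Tek and Emcn spanned 0.11 and 0.10 over the 4 arrays.

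The mural markers other than Cspg4 had overlapping groups and differences between -0.15 and -0.02. The median of all 6 mural genes was 0.10 and -0.21 after CSA, 0.08 and -0.04 after vehicle. CSA replicate 2 was lowest for 5 of the 6 genes, against 32.8% of all genes. All 6 differences were below 0 (58.9% of all genes), with a median of -0.09 (-0.04 over all genes). That median became -0.26 with CSA replicate 1 left out and 0.08 with CSA replicate 2 left out. Acta2, the smooth muscle actin gene, was 0.23 and -0.41 after CSA, -0.05 and 0.05 after vehicle. The CSA arrays thus lay on either side of the vehicle arrays (-0.09 ± 0.27). Tagln, another contractile gene, was 0.16 and -0.31 against 0.08 and -0.19 (-0.02 ± 0.24), with the sign turned to 0.02 by quantile normalization.

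Pdgfrb, the receptor that recruits pericytes, was -0.005 and -0.13 after CSA, 0.25 and -0.08 after vehicle (-0.15 ± 0.19), and 0.01 without vehicle replicate 1. Rgs5, a regulator of G protein signalling typical of pericytes, stayed between -0.14 and 0.08 (-0.09 ± 0.17). Mcam, an adhesion molecule of mural and endothelial cells, was 0.16 and -0.27 after CSA, 0.08 and -0.08 after vehicle (-0.06 ± 0.22). For all 3 of these genes the CSA and vehicle arrays overlapped.

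Melanocyte markers other than Mitf were near the baseline and overlapped between the groups. The medians of all 7 genes were 0.08 and 0.05 after CSA, 0.14 and -0.001 after vehicle. Of the 7 genes 4 were lower and 3 higher in CSA (58.9% of all genes were lower). Their median difference of -0.02 became 0.004 with quantile normalization and 0.01 with array medians set level. Dct, which encodes dopachrome tautomerase and marks melanocyte stem cells, was 0.08 and 0.44 after CSA, 0.20 and -0.04 after vehicle. CSA replicate 2 was the high array, and without it the difference of 0.17 ± 0.21 was -0.01. Tyrp1, of the same enzyme family, had the same order of arrays, at 0.01 and 0.25 against 0.14 and -0.09 (0.10 ± 0.19). It turned to -0.01 when CSA replicate 2 or vehicle replicate 2 was left out.

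The remaining pigment genes did not have the array order of Dct. Tyr, which encodes tyrosinase, was also highest on CSA replicate 2 but stayed between -0.04 and 0.05 on all 4 arrays (-0.02 ± 0.16). Pmel, which forms the fibrils of the melanosome, was 0.07 and -0.39 after CSA, 0.01 and -0.001 after vehicle, so that CSA replicate 2 was the lowest array here and not the highest (-0.16 ± 0.22). Mlana, a melanosome protein gene, spanned 0.23 (-0.02 ± 0.17). Kit, the receptor of stem cell factor on melanocytes and mast cells and a neighbour of Pdgfra and Kdr in the genome, was 0.19 and -0.18 after CSA, 0.15 and -0.25 after vehicle. Both arrays numbered 1 lay above both numbered 2, and the difference of 0.05 ± 0.24 turned to -0.13 without CSA replicate 1.

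All 3 Schwann cell markers split by replicate number and not by treatment, as did markers of other sources, Col3a1, Vwf and Kit among them. Of the further Schwann cell genes, read below as a list, Mbp, Foxd3, Gap43 and Egr2 split so. Pmp22, Erbb3, Cdh19, L1cam and Ncam1 did not. One order that splits so has CSA replicate 2 lowest, then vehicle replicate 2, CSA replicate 1 and vehicle replicate 1. Sox10 had it, as did 15 of all the markers, Sox10 included, and 14.7% of all genes. The share of all genes with any such split was not counted, so the split cannot be read as a trait of Schwann cells. S100b, a calcium-binding protein gene of glia, was 0.25 and -0.11 after CSA, 0.23 and -0.20 after vehicle (0.05 ± 0.25). Ngfr, the low-affinity neurotrophin receptor, was 0.10 and -0.15 against 0.07 and -0.09 (-0.02 ± 0.19). Sox10, the neural crest factor of Schwann cells and melanocytes, was 0.06 and -0.19 against 0.39 and -0.06 (-0.23 ± 0.23). The Sox10 difference came to -0.009 with vehicle replicate 1 left out. In all 3 genes both arrays numbered 1 were above 0 and both numbered 2 below it. The median difference of -0.02 became 0.03 with quantile normalization and 0.01 with array medians set level.

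**Figure D5:**
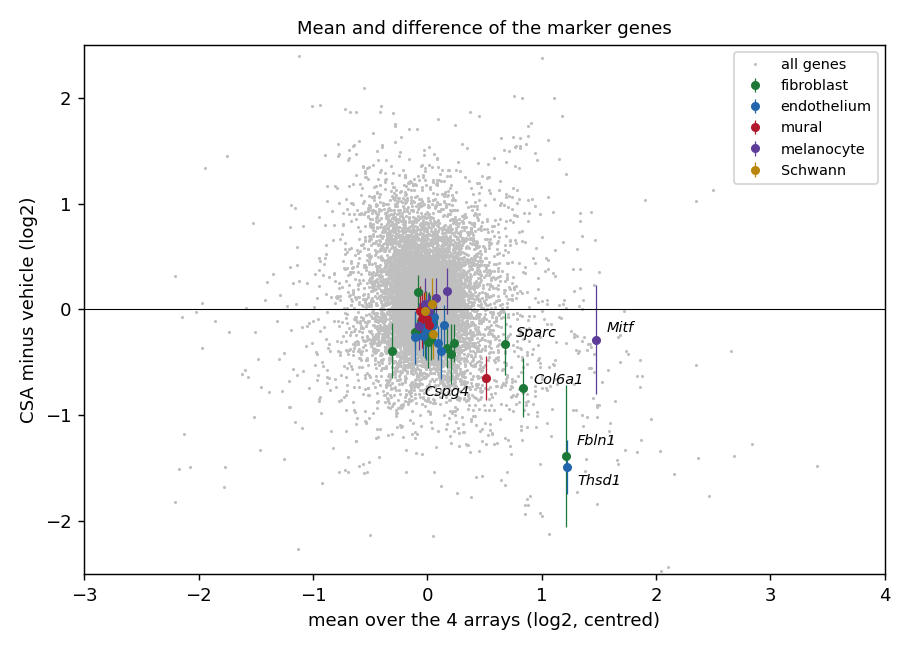
Mean over the 4 arrays (x axis, log2, centred) and CSA minus vehicle difference (y axis, log2) of all genes (grey) and of the marker genes by source, with limma's standard error as a bar; 7 genes lie outside the plot. The 42 marker genes nearer the baseline gather around 0, while Thsd1 and Fbln1 lie lowest, at -1.49 and -1.38.

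Further markers of the same cells, which are not among the 48, were read in the same way. Over all genes, for comparison, 58.9% were lower in CSA and the median difference was -0.04. Of 11 other fibroblast genes measured 10 were lower in CSA (median -0.22), with Col14a1, a fibril-associated collagen, at -0.42 ± 0.19 and Serpinf1, a secreted serpin, at -0.42 ± 0.23. Of 12 other endothelial genes 9 were lower (median -0.16), with the receptor subunit gene Ramp2 at -0.46 ± 0.26 and Mmrn2 at -0.25 ± 0.18. Of 10 other mural genes 9 were lower (median -0.17), with smooth muscle myosin Myh11 at -0.30 ± 0.24 and the channel gene Kcnj8 at -0.26 ± 0.23. Of 11 other pigment cell genes 9 were lower (median -0.09), with Rab38 at -0.42 ± 0.32 and Sox5 at -0.19 ± 0.17. Of 9 other Schwann cell genes 6 were lower (median -0.04), with Pmp22 at -0.28 ± 0.20 and Egr2 at -0.78 ± 0.56. None of these passed limma's test (adjusted p = 0.999), and at an unadjusted p under 0.05 there were 0 in each of the 5 lists. Fstl1, Myl9 and Gpnmb, named after their values were seen, were the genes of these 5 lists with a mean of at least 0.5. Their differences were -0.54 ± 0.51, -0.90 ± 1.08 and 0.10 ± 0.75.

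Lists of other cells of the skin were read beside the 48. The figures over all genes were again 58.9% lower in CSA and a median of -0.04, with vehicle replicate 1 highest for 43.2%. Of 12 dermal papilla genes 11 were lower in CSA (median -0.21); Hhip, a hedgehog antagonist, was -0.09 and -0.12 against 0.38 and 0.64 (-0.61 ± 0.18), and Prdm1 differed by -0.52 ± 0.21. Of 10 adipocyte genes 7 were lower (median -0.10), with Cidec at -0.32 ± 0.16 and Lep at -0.26 ± 0.19. Of 16 leukocyte genes 13 were lower (median -0.12) and vehicle replicate 1 was highest for 14; Cd3g, a T cell receptor subunit gene, was higher in CSA by 0.79 ± 0.27 and Laptm5 differed by -0.34 ± 0.22. The erythroid genes Slc4a1 and Alas2, the 2 measured of 5, differed by -0.28 ± 0.17 and -0.15 ± 0.20. Of the 18 keratinocyte and bulge genes 14 were lower (median -0.27), with Cdh1, the epithelial cadherin, at -0.71 ± 0.17 and the desmoglein gene Dsg3 at -0.73 ± 0.30. Hhip, Cd3g and Cdh1 were the genes of these 5 lists at an unadjusted p under 0.05 by limma, and 0 passed after adjustment. The part of any of these cells in the values of the 48 genes was not tested.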

How the data were processed

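RNA of sorted bulge cells went onto 4 arrays of a single colour; according to the labels' protocols, 20 ng of total RNA was amplified in 1 round and labelled with biotin as cDNA. The deposited log2 values (the base is not stated by the authors and was taken as 2) were centred per gene by the authors on a baseline that, like the normalization, the sources used here do not give. The build mm8 is all that the submitters' processing notes name. No scanner values were used here, so signal over background is unknown, and precision is limited by how few arrays there are.

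Of 28815 rows 21780 named 1 gene by the platform annotation, 1605 named several and were left out, and 5430 are unnamed here. Of a gene's rows the one with the highest mean was used. The test was limma 3.58.1 under R 4.3.3 (lmFit, eBayes without a trend, two-sided, no block, Benjamini-Hochberg over 19935 genes, threshold 0.05). Nothing says that the replicates are separate cultures or animals beyond the word biological, so p-values measure the spread between these arrays. The fit was tested on simulated data.

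The members, the 10 other lists and the tests were chosen with earlier results of these data known. Values on every array are given, per source, for up to 6 genes with the largest absolute moderated t, up to 4 with the largest range and the defining genes, and up to 2 genes of each other list; Cd34 and the remaining markers of the 48 are named outside this rule, with their values seen. Alternatives were quantile normalization, arrays centred on their medians, the mean of a gene's rows, leaving out genes whose mean lay under the 25th percentile, eBayes with a trend, a replicate block and leaving out each array.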

Additional observations from a re-analysis of the deposited data

How the results depend on the processing

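Under the 10 alternatives limma called 0 genes at an adjusted p under 0.05, and the smallest adjusted p was 0.276, without CSA replicate 2. The replicate numbers come from the titles and nothing says that they pair the arrays. The deviations of same-numbered arrays from their group means correlated at 0.236 over genes, and with the replicate block limma gave 0 genes after adjustment and 914 at an unadjusted p under 0.05, against 565 without it. Among the 48 genes the block kept Thsd1 and Cspg4 under an unadjusted p of 0.05 and added Fbln1, whose limma standard error went from 0.67 to 0.15 (unadjusted p = 0.0033, adjusted p = 0.866). Leaving out 1 array gave from 381 to 1410 such genes.

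The median difference of the endothelial markers ran from -0.299 to -0.0314 when 1 array was left out, and that of the mural markers from -0.261 to 0.0792. Of 337 differences of the 34 genes named by the rule, recomputed under the alternatives, 303 kept their direction and 34, in 17 genes, did not. Many of the 303 could not have moved, so their number does not measure stability. The percentile filter, eBayes with a trend and the replicate block leave a gene's difference as it was. The mean of a gene's rows could change that of Mitf alone. All 34 changes of direction came from quantile normalization, centring on array medians or leaving out 1 array. Among them, quantile normalization gave 0.0429 for Pdgfra, 0.0206 for Tagln and 0.0323 for Ngfr, and centring on array medians gave 0.0234, 0.0108 and 0.0103 for these and 0.00882 for Tyr. The others came from leaving out 1 array, with these ranges: Col3a1 from -0.32 to 0.14, Pdgfra from -0.0978 to 0.0909, Pecam1 from -0.291 to 0.00627, Vwf from -0.450 to 0.0761, Eng from -0.30 to 0.000145, Pdgfrb from -0.312 to 0.0103, Acta2 from -0.41 to 0.23, Tagln from -0.25 to 0.22, Mcam from -0.27 to 0.16, Mitf from -0.86 to 0.29, Dct from -0.00692 to 0.352, Tyr from -0.0633 to 0.0272, Tyrp1 from -0.0141 to 0.222, Pmel from -0.390 to 0.0695, Kit from -0.15 to 0.25, S100b from -0.16 to 0.27 and Ngfr from -0.14 to 0.11. The cause was not tested. With 1 array in a group, that array is assumed to vary like those of the other group.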
